A study of Mus with 8 samples.

Results

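Respiratory complex I genes were examined in mouse brown adipose tissue as the genes whose symbol starts with Nduf. A gene was taken where an array probe set carried its name alone, and each of the 46 genes found had 1 such probe set. They are 46 of the 54 Nduf genes in the RefSeq gene table and 46 of the 30142 singly named genes on the array. Of the 46, 6 are core subunits encoded in the nucleus, 27 are accessory subunits, 8 are assembly factors and 5 have other roles or are copies. The accessory subunits Ndufb1, Ndufb4 and Ndufa11 had no probe set naming them alone and were not analysed here, nor were 4 pseudogenes.

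The study compared interscapular brown adipose tissue of mice lacking Hilpda, a lipid droplet protein that inhibits the lipase ATGL, with that of wild-type mice. Both groups had the C57BL/6 background and were labelled female, with 1 array from each of 4 mice in each group, so p-values measure the spread between mice. The labels state no age, no cell type for the deletion and no promoter of a Cre. The values are log2 expression values per probe set, so a difference of 1 is a 2-fold difference.

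Complex I is the first and largest enzyme of the respiratory chain: it takes electrons from NADH, passes them to ubiquinone and pumps protons across the inner mitochondrial membrane. Its L shape has a matrix arm, which carries the flavin and the iron-sulfur clusters, and a membrane arm, which pumps. The core subunits do the catalysis and are partly encoded in mitochondrial DNA, accessory subunits surround and stabilise them, and assembly factors help to build the complex without staying in it. Brown adipocytes are rich in mitochondria, and their respiratory chain builds the proton gradient that Ucp1 dissipates as heat.

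The 8 arrays formed 2 sets that each held 2 arrays of each group. Set 1 (replicates 1 and 2) had array medians over all genes of 3.93 to 3.99, and set 2 (replicates 3 and 4) had 4.93 to 4.98. Knockout was therefore compared with wild type in a fit that held the set as a block, and once more inside each set. Hilpda itself read 4.45, 4.37, 5.60 and 5.51 on knockout-labelled arrays 1 to 4 and 4.37, 4.28, 6.00 and 5.92 on wild-type arrays 1 to 4, so it was lower on the knockout-labelled arrays in set 2 and not in set 1. The position of its probes within the deleted gene is not stated, so these values do not check the labels. Against the female label, 3 Y-linked genes read 7.00 to 11.01 and Xist read 3.49 to 4.10. All 15 brown adipocyte markers, among them Ucp1 and Cidea, were above the 95th percentile of olfactory receptor genes (which brown fat is not expected to transcribe) on every array. A list of 30 skeletal muscle genes had array medians of 5.47, 8.29, 5.05 and 10.04 in knockout and 7.26, 6.62, 10.36 and 8.75 in wild type. A list of 19 liver genes had array medians of 10.81, 7.55, 4.18 and 4.33 in knockout and 7.11, 5.32, 4.09 and 4.31 in wild type. The mean over all 8 arrays of each of these muscle and liver genes was above the olfactory 95th percentile of means, 4.19. On every array, however, only 21 of the 30 muscle genes and 4 of the 19 liver genes were above the olfactory 95th percentile. The liver medians of set 2 lay below that percentile, which was 4.74 to 4.84 on those arrays. Albumin (Alb) read 19.23 on knockout array 1 and 4.79 to 15.81 on the others. The part of these other tissues in the complex I differences was not tested. In bulk tissue, fewer cells of a type and less RNA per cell cannot be told apart.

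Complex I genes differed little between the groups, and none passed the test. With the set as a block, the 46 differences ran from -0.19 (Ndufs5) to 0.22 (Ndufs4), and 27 were above 0 and 19 below. Their median was 0.0055, beside 0.0073 over all genes, and their median size without sign was 0.0683, beside 0.0793. The mean of each of the 46 was above the olfactory 95th percentile of means. Over the 17004 genes above it the median was -0.0102 and the median size 0.094. In limma with Benjamini-Hochberg adjustment over all 30142 genes, 0 complex I genes had an adjusted p under 0.05, against 0% of all genes. At an unadjusted p under 0.05 the count was 1 gene (2.17%), beside 4.81% of all genes. The spread within groups sets what could be seen: the median 95% interval reached 0.236 to either side of the difference. All 46 intervals lay within 1 of 0, and 41 lay within 0.5, which is a 1.41-fold change. The 5 that reached further belonged to Ndufs8, Ndufb10, Ndufa5, Ndufs4 and Ndufaf4. Centring each array on its median turned the split to 18 above and 28 below, with the median of all genes then at -0.0148.

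**Figure D1:**
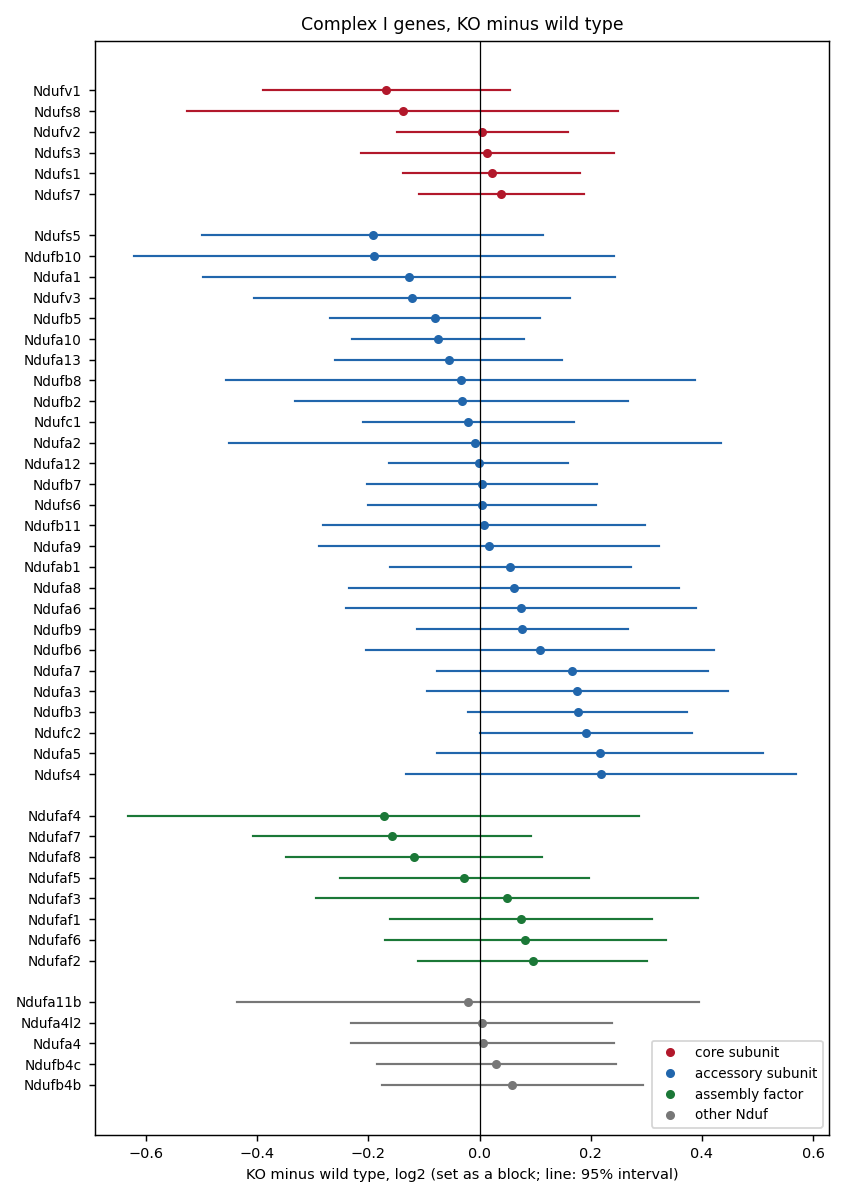
Knockout minus wild type for each of the 46 complex I genes on the log2 scale, with the set of arrays as a block; points are the fitted differences, horizontal lines the 95% intervals, and colours the class of the gene. The points lie between -0.19 and 0.22, and 41 of the 46 intervals lie within 0.5 of 0.

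The nuclear core subunits lie in the matrix arm, which carries the electrons. Ndufv1 binds the NADH and the flavin, and Ndufv2, Ndufs1, Ndufs7 and Ndufs8 bind iron-sulfur clusters. Ndufv1 read 14.11, 14.02, 13.76 and 13.39 in knockout and 14.18, 14.14, 13.81 and 13.81 in wild type. Both knockout arrays were below both wild-type arrays in each set, the only complex I gene of which that was so. The difference was -0.17 (SE 0.10, 95% interval -0.39 to 0.05), with -0.10 in set 1 and -0.24 in set 2, where knockout array 4 was the lowest. Ndufs8 read 16.23, 15.64, 16.82 and 16.83 in knockout and 16.40, 16.31, 16.55 and 16.81 in wild type. Its knockout arrays were below the wild-type arrays in set 1 (difference -0.42) and above them in set 2 (0.14), so the difference with the set as a block was -0.14 (SE 0.17). Ndufs3 read 12.34, 12.33, 13.13 and 12.88 in knockout and 12.36, 12.53, 12.77 and 12.96 in wild type, with the knockout lower in set 1 and the groups overlapping in set 2.

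The other 3 core subunits had the narrowest intervals among the core genes. Ndufv2 read 12.76, 12.67, 13.11 and 13.03 in knockout and 12.75, 12.78, 13.00 and 13.02 in wild type, a difference of 0.0052 (95% interval -0.15 to 0.16). Ndufs1, the largest core subunit of the matrix arm, read 15.54, 15.54, 15.86 and 16.01 in knockout and 15.59, 15.50, 15.85 and 15.91 in wild type, a difference of 0.02 (-0.14 to 0.18). Ndufs7 read 12.46, 12.45, 13.90 and 13.91 in knockout and 12.34, 12.43, 13.86 and 13.93 in wild type, a difference of 0.04 (-0.11 to 0.19). None of these 3 intervals reached beyond 0.19 in either direction. Across the 6 core subunits the median difference was 0.0097, with 4 above 0 and 2 below.

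Among the 27 accessory subunits 15 differences were above 0 and 12 below, with a median of 0.005. The 3 highest were those of Ndufs4, Ndufa5 and Ndufc2. Ndufs4, whose loss in mice destabilises the NADH-binding end of the complex and causes a fatal encephalopathy, read 12.87, 12.60, 14.00 and 14.26 in knockout and 12.89, 12.62, 13.49 and 13.85 in wild type. The groups were alike in set 1 and did not overlap in set 2, where the difference was 0.46 (95% interval 0.03 to 0.89; limma adjusted p = 0.3). Ndufa5, in the matrix arm, read 10.80, 10.52, 12.19 and 12.30 in knockout and 10.40, 10.82, 11.84 and 11.88 in wild type. It too overlapped in set 1 and stood apart in set 2 (difference 0.39), with 0.22 (SE 0.13) over both. Ndufc2, a membrane-arm subunit, read 13.06, 12.85, 14.39 and 14.25 in knockout and 12.84, 12.86, 14.02 and 14.06 in wild type. Its difference of 0.19 (SE 0.08, 95% interval 0.00 to 0.38) was the one at an unadjusted p under 0.05, and its limma adjusted p was 0.987.

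The 3 lowest accessory differences were those of Ndufs5, Ndufb10 and Ndufa1, which all belong to the membrane arm. Ndufs5 read 7.75, 7.93, 9.35 and 9.05 in knockout and 7.83, 8.33, 9.25 and 9.45 in wild type, with a difference of -0.19 (SE 0.13). Ndufb10 read 7.73, 7.23, 9.63 and 9.05 in knockout and 7.30, 7.85, 9.54 and 9.69 in wild type, with a difference of -0.19 (SE 0.19). Ndufa1, encoded on the X chromosome, read 13.51, 12.85, 13.76 and 13.52 in knockout and 13.44, 13.52, 13.48 and 13.70 in wild type, with a difference of -0.13 (SE 0.16). In all 3 genes the groups overlapped in both sets, and replicates of one group lay as far apart as the groups did.

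Ndufb3, a small subunit of the distal membrane arm, was the one complex I gene with both knockout arrays above both wild-type arrays in each set. It read 13.33, 13.51, 13.99 and 13.82 in knockout and 13.11, 13.32, 13.79 and 13.74 in wild type. The difference was 0.18 (SE 0.08, 95% interval -0.02 to 0.37), with 0.21 in set 1 and 0.15 in set 2. Such separation in both sets was found for 2.82% of all genes in this direction and for 2.46% in the direction of Ndufv1, and 1 of 46 complex I genes is 2.17%. Ndufb9 read 19.89 on knockout array 2, within 0.1 of the highest value of that array, 19.93. That value may be limited by the scale, so its difference of 0.08 is uncertain.

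The assembly factors split evenly, with 4 differences above 0, 4 below and a median of 0.0111. Ndufaf3 and Ndufaf4 act together early in building the matrix arm. Ndufaf4 read 9.69, 9.59, 10.88 and 10.19 in knockout and 9.40, 9.53, 10.91 and 11.20 in wild type, above the wild type in set 1 (difference 0.18) and below it in set 2 (-0.52, 95% interval -1.05 to 0.01). Knockout array 4 was the lowest of the 4 arrays of set 2. Ndufaf3 read 7.11, 6.82, 8.84 and 8.45 in knockout and 6.90, 7.00, 8.29 and 8.84 in wild type, and overlapped in both sets (difference 0.05, SE 0.15).

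Ndufaf1, part of the complex that assembles the membrane arm, read 9.36, 9.39, 10.61 and 10.77 in knockout and 9.08, 9.11, 10.75 and 10.88 in wild type. In set 1 the arrays of a group lay within 0.03 of each other and the knockout was higher by 0.28 (95% interval 0.03 to 0.52), but the limma adjusted p was 0.585 and the set 2 difference was -0.13. Ndufaf5, which hydroxylates an arginine of Ndufs7, read 5.96, 6.01, 7.57 and 7.28 in knockout and 6.11, 6.20, 7.30 and 7.32 in wild type. Ndufaf8, its partner, read 7.12, 6.81, 9.04 and 9.00 in knockout and 6.97, 6.90, 9.25 and 9.31 in wild type. Ndufaf5 was lower in knockout in set 1 and overlapped in set 2, and Ndufaf8 overlapped in set 1 and was lower in set 2.

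Ndufaf7, a methyltransferase, read 7.44, 7.12, 8.99 and 8.88 in knockout and 7.54, 7.23, 9.06 and 9.23 in wild type, with a difference of -0.16 (SE 0.11). Ndufaf6 read 6.25, 6.06, 7.44 and 7.39 in knockout and 5.93, 6.35, 7.34 and 7.19 in wild type, with a difference of 0.08 (SE 0.11). Ndufaf2, which acts late in assembly, read 4.85, 4.79, 6.33 and 6.37 in knockout and 4.66, 4.84, 6.38 and 6.07 in wild type, with a difference of 0.10 (SE 0.09). Of these 3, Ndufaf7 was lower in knockout without overlap in set 2, Ndufaf6 was higher without overlap in set 2, and Ndufaf2 overlapped in both sets.

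A further 5 symbols start with Nduf without being complex I subunits or assembly factors of their own. Ndufa4, now assigned to complex IV, read 18.92, 18.66, 17.87 and 17.70 in knockout and 18.85, 18.90, 17.54 and 17.82 in wild type, a difference of 0.0058 (95% interval -0.23 to 0.24). Its hypoxia-induced relative Ndufa4l2 read 4.00, 4.13, 4.59 and 4.67 in knockout and 3.84, 3.96, 4.68 and 4.91 in wild type. Ndufa4l2 was above the olfactory 95th percentile on 4 of 8 arrays, whereas each of the other 45 genes was above it on all 8. Ndufa11b, a transcribed pseudogene related to Ndufa11, read 6.16, 5.87, 8.76 and 9.30 in knockout and 6.41, 6.36, 8.75 and 8.66 in wild type. Its knockout arrays were below wild type in set 1 and above it in set 2. Ndufb4b and Ndufb4c are copies of Ndufb4, and signal from near-identical copies may be shared among their probes, which makes these 3 copies uncertain.

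**Figure D2:**
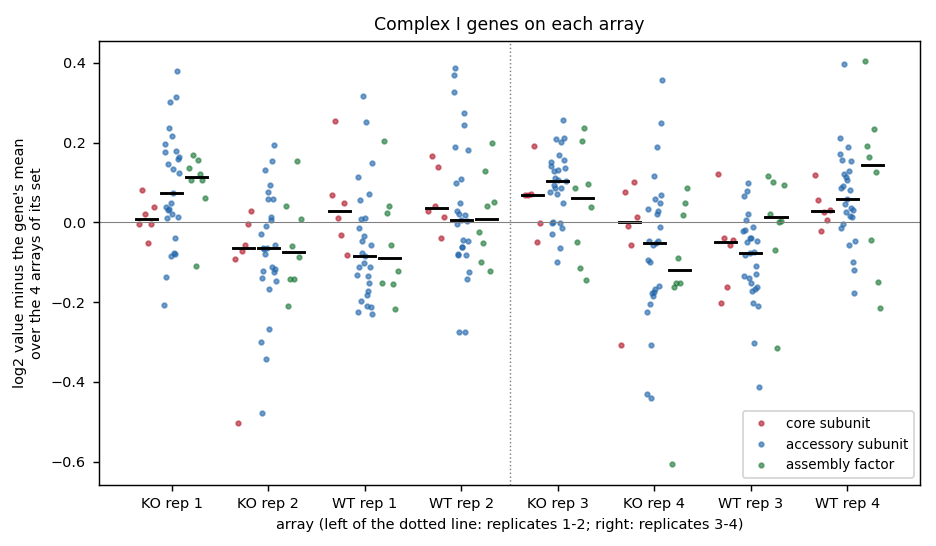
Log2 value of each complex I gene minus its mean over the 4 arrays of its set, by array and class. Points are core subunits, accessory subunits and assembly factors, and black bars their medians. The accessory median is 0.07 and -0.06 on knockout arrays 1 and 2, 0.10 and -0.05 on knockout arrays 3 and 4, and between -0.08 and 0.06 on the wild-type arrays, so arrays of one group lie on both sides of 0.

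Within the sets, complex I genes did not keep a direction. In set 1 the median difference of the 46 genes was -0.0119 (21 above 0, 25 below) and in set 2 it was 0.0352 (29 above, 17 below). Beside these stood 0.0034 and 0.0174 over all genes. Over the genes above the olfactory 95th percentile the medians were -0.0429 and 0.0352. Core subunits had a median of -0.0744 in set 1, with 1 above 0 and 5 below, and of 0.057 in set 2, with 5 above and 1 below. Accessory subunits had -0.0081 and 0.0168, and assembly factors 0.023 and -0.0215. Leaving out 1 array gave core medians of -0.1039 to -0.0302 in set 1 and 0.0182 to 0.0769 in set 2, so their sign held. The accessory medians ran from -0.0315 to 0.0966 and from -0.0704 to 0.0942. Those of assembly factors ran from -0.1029 to 0.1395 and from -0.1901 to -0.0279. By position, 11 of 15 matrix-arm genes were below 0 in set 1 and 13 of 15 were above 0 in set 2. Of the genes above the olfactory 95th percentile, 40.5% were above 0 in set 1 and 55.5% in set 2. Of 14 ATP synthase genes, 9 were below 0 in set 1 and 12 above 0 in set 2, so this turn was not particular to the matrix arm. The proximal membrane arm (8 genes) had medians of -0.0442 and -0.0093 and the distal membrane arm (9 genes) 0.1152 and -0.0357.

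Quantile normalization of the 8 arrays turned the sign of the median of the 46 genes in both sets. Their median became 0.095 in set 1 (33 above 0, 13 below) and -0.093 in set 2 (16 above, 30 below). Of all 30142 genes, 14772 were then above 0 in set 1 and 14516 in set 2. The medians of the other complexes were then also above 0 in set 1 and below 0 in set 2. They were 0.1322 and -0.1821 for complex II, 0.0314 and -0.3361 for complex III and 0.0712 and -0.0961 for complex IV. ATP synthase had 0.0719 and -0.0173, so this pattern was not particular to complex I. By position, 12 of 15 matrix-arm genes were then above 0 in set 1 and 8 of 15 below 0 in set 2. The proximal arm had medians of 0.0807 and -0.1243, and the distal arm 0.2153 and -0.2058, with 0 of 9 genes above 0 in set 2. By class, the medians were 0.0516 and -0.0784 for core subunits, 0.1104 and -0.1294 for accessory subunits and 0.0977 and -0.1089 for assembly factors. The core, accessory and matrix-arm medians changed sign in both sets and the proximal-arm median in set 1. Those of the distal arm and the assembly factors kept their sign. Centring each array on its median instead gave -0.0389 and 0.0182 for the 46 genes. Core subunits then had -0.1015 and 0.0401, and the matrix arm -0.0689 and 0.0454. These medians kept their sign in both sets, as did those of both membrane arms. The accessory median turned to -0.0002 in set 2 and the assembly-factor median to -0.004 in set 1.

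In limma with Benjamini-Hochberg adjustment, 0 complex I genes passed in set 1 (0% of all genes) and 0 in set 2 (0.00332% of all genes, which is 1 gene). At an unadjusted p under 0.05 there was 1 in set 1 (Ndufaf1), beside 7.76% of all genes, and there were 2 in set 2 (Ndufs4 and Ndufc2), beside 15.1%. Both knockout arrays were above both wild-type arrays for 9 complex I genes in set 1 (19.6%, beside 18.9% of all genes) and for 13 in set 2 (28.3%, beside 24%). They were below for 6 in set 1 (13%, beside 19.5%) and for 8 in set 2 (17.4%, beside 19.1%). Among the 17004 genes above the olfactory 95th percentile, they were above for 2408 in set 1 and 4944 in set 2. They were below for 4635 of these genes in set 1 and 3656 in set 2. No complex I result is read from these shares. Within a set, 28 of 46 intervals in set 1 and 25 of 46 in set 2 lay within 0.5 of 0.

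The largest differences within set 1 were those of Ndufb8, Ndufaf1 and Ndufa3 above 0 and of Ndufs8, Ndufa11b and Ndufa1 below. Ndufb8, in the distal membrane arm, read 9.48, 9.47, 10.95 and 10.41 in knockout and 9.14, 9.26, 10.80 and 11.25 in wild type, a difference of 0.28 in set 1 and -0.35 in set 2. Ndufa3, in the proximal membrane arm, read 12.70, 12.20, 13.17 and 13.17 in knockout and 12.21, 12.18, 12.99 and 13.15 in wild type, and in set 1, where the difference was 0.25, knockout array 1 stood above the other 3 arrays. In set 2 the largest were those of Ndufs4, Ndufa5 and Ndufa11b above 0 and of Ndufaf4, Ndufb8 and Ndufb10 below. Ndufb8 and Ndufa11b were among the extremes of both sets, with opposite signs.

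**Figure D3:**
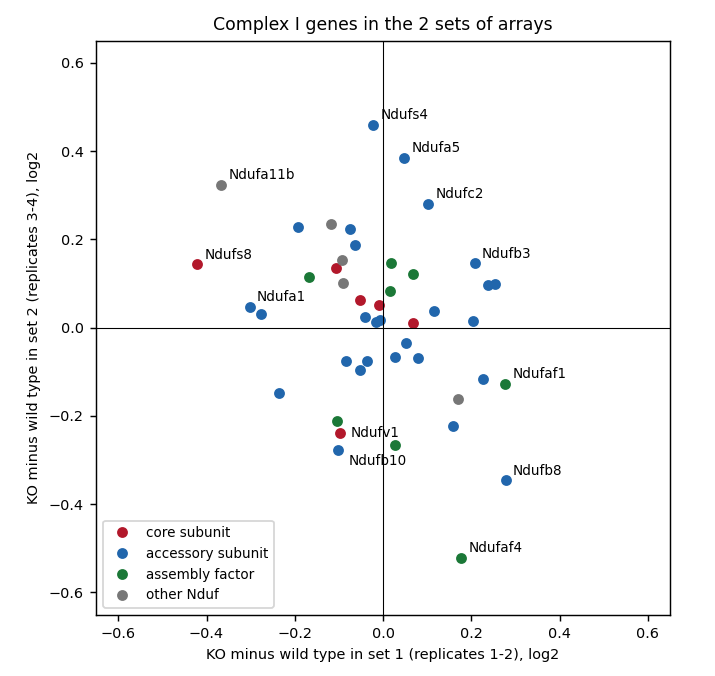
Knockout minus wild type in set 1 (horizontal axis) against set 2 (vertical axis), log2, for the 46 complex I genes, coloured by class. Genes lie in all 4 quadrants, and 18 of 46 have the same sign in both sets.

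The difference between the sets was tested directly as the set 2 difference minus the set 1 difference. In limma, 0 complex I genes passed after Benjamini-Hochberg adjustment, against 0.471% of all genes (142 genes, a count that fell to between 0 and 23 when any 1 array was left out). At an unadjusted p under 0.05 there were 3 complex I genes (6.52%), beside 15% of all genes. The 3 largest values above 0 were Ndufa11b with 0.69 (95% interval 0.06 to 1.32), Ndufs8 with 0.56 (-0.09 to 1.22) and Ndufs4 with 0.48 (-0.13 to 1.09). The 3 largest below 0 were Ndufaf4 with -0.70 (-1.45 to 0.06), Ndufb8 with -0.62 (-1.33 to 0.08) and Ndufaf1 with -0.40 (-0.75 to -0.06). The third gene at an unadjusted p under 0.05 was Ndufab1, the mitochondrial acyl carrier protein that sits in both arms, with -0.34. It read 8.59, 8.55, 10.02 and 10.03 in knockout and 8.28, 8.41, 10.07 and 10.21 in wild type, higher in set 1 and lower in set 2 without overlap in either. In this way 6 complex I genes (13%) were apart in opposite directions, beside 12.8% of all genes, and 18 of 46 (39.1%) had the same sign in both sets, beside 42.8% of all genes.

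The level of complex I genes differed far more between the sets than between the groups. The set 2 mean was above the set 1 mean by a median of 1.16 over the 46 genes, beside 0.88 over all genes and 1.22 over the genes above the olfactory 95th percentile. The gap was 0.45 for core subunits, 1.15 for accessory subunits and 1.51 for assembly factors. It was below 0 for 5 genes, Ndufa4 (-1.10), Ndufv1 (-0.42), Ndufa10 (-0.34), Ndufa9 (-0.26) and Ndufb9 (-0.18). Of the 6 genes whose set 1 mean was over 16, 4 were lower in set 2, and among the rest only Ndufv1 was. The array scales of the sets differ, so this gap is not read as a difference in expression.

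**Figure D4:**
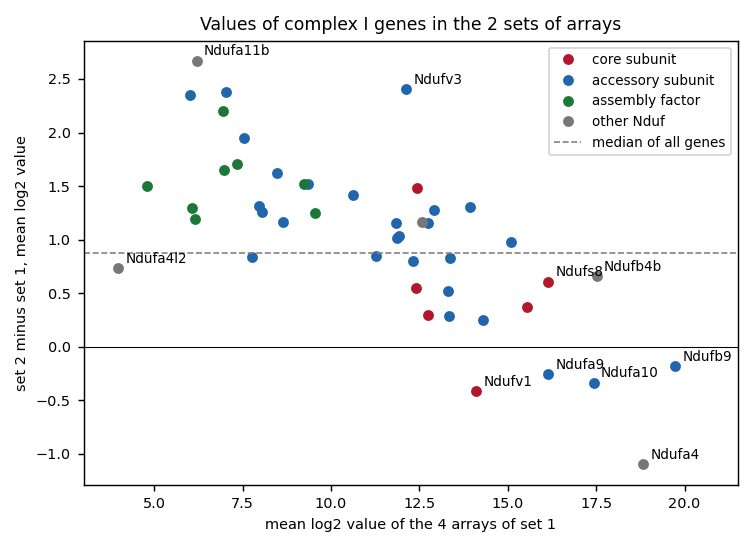
Set 2 minus set 1 mean log2 value of each complex I gene (vertical axis) against its mean in set 1 (horizontal axis), coloured by class; the dashed line is the median gap of all genes, 0.88. The gap runs from -1.10 (Ndufa4) to 2.67 (Ndufa11b), and 4 of the 6 genes with a set 1 mean over 16 lie below 0.

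The 7 core subunits encoded in mitochondrial DNA form most of the proton-pumping arm, and 3 had probe sets of their own. ND3 was at the top of the scale on all 8 arrays, so it allows no comparison. ND2 read 19.20, 19.20, 17.79 and 17.72 in knockout and 19.14, 19.20, 18.26 and 18.09 in wild type. Its groups coincided near the top of the scale in set 1 and were apart in set 2, where the difference was -0.42 (95% interval -0.66 to -0.18; limma adjusted p = 0.139). ND6 read 19.32, 18.77, 17.52 and 17.56 in knockout and 19.30, 18.05, 17.87 and 17.78 in wild type, also lower in knockout without overlap in set 2.

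Of 12 further complex I assembly factors, 10 were measured, with 5 differences above 0, 5 below and a median of -0.0226. Ecsit, which works with Ndufaf1 in assembling the membrane arm, read 8.72, 8.52, 10.48 and 10.41 in knockout and 7.94, 8.15, 10.22 and 10.28 in wild type. Its knockout arrays were above wild type without overlap in both sets, as for 2.82% of all genes. The difference was 0.39 (SE 0.11, 95% interval 0.14 to 0.63), at an unadjusted p of 0.00731 and a limma adjusted p of 0.987. Dmac2 was higher in knockout by 0.38 in set 1 and lower by 0.34 in set 2, and neither passed the test. No other gene of this list had an unadjusted p under 0.05 in these comparisons.

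The other complexes of the respiratory chain are given for comparison. With the set as a block, the median difference was 0.0052 over its 33 nuclear subunits, 0.0072 over 4 genes of complex II, -0.0618 over 9 of complex III, -0.0244 over 12 of complex IV and -0.0043 over 14 of ATP synthase. In complex III, 7 of 9 genes were below 0, beside 9074 of the 17004 genes above the olfactory 95th percentile. Within the sets, 7 of the 9 were below 0 in set 1 and 5 in set 2. Single genes of the other complexes lay outside the complex I range of -0.19 to 0.22. Among them were Uqcrfs1 of complex III (-0.25), Atp5g1 of ATP synthase (-0.24) and Cox4i1 of complex IV (-0.23). Uqcrb, a complex III subunit, had -0.43 (SE 0.11) and was lower in knockout without overlap in both sets. Sdhc, a complex II subunit, had 0.30 (SE 0.11), and Atp5o of ATP synthase, inside the complex I range, had 0.12 (SE 0.07). Sdhc and Atp5o were higher in knockout without overlap in both sets. Such separation was found for 2.46% of all genes with knockout lower and for 2.82% with knockout higher. No gene of these lists passed the test (limma adjusted p = 0.987 for Uqcrb and for Sdhc), and the complexes were not tested against each other.

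**Figure D5:**
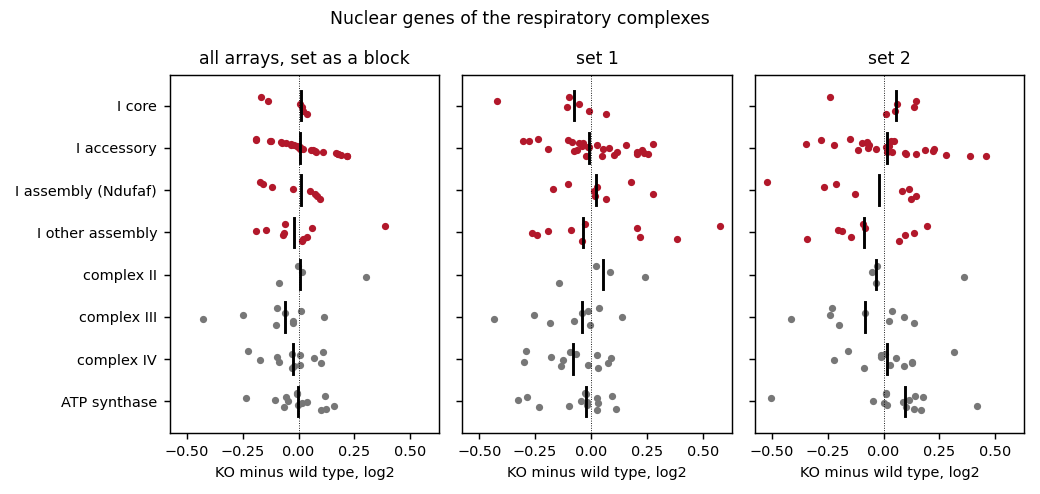
Knockout minus wild type, log2, of the nuclear genes of the respiratory complexes, in 3 panels: all arrays with a block for the set, set 1, and set 2. Points are genes and bars medians. Complex I is split into core subunits, accessory subunits, Ndufaf assembly factors and other assembly factors. The medians with the set as a block lie between -0.0618 (complex III) and 0.0111 (Ndufaf assembly factors).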

How the data were processed

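The submitters' design text names Affymetrix Clariom S arrays, and whether the deposited probe sets are those of that array was not checked. The authors deposited log2 expression values, made with RMA in Affymetrix Expression Console per the submitters' processing notes; versions and build are not stated. The deposited table holds 72688 probe sets, 6732 of them controls. GEO's platform annotation gave 1 gene symbol to 30604, several to 2146 and none to 33206 of the rest, and 820 symbols were updated through RefSeq (GRCm38.p6, names only). The probe set with the highest mean stood for each of 30142 genes. The Ndufs6 annotation also lists the pseudogene Ndufs6b.

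Differences were fitted over all genes with limma 3.58.1 (R 4.3.3; lmFit, eBayes) and Benjamini-Hochberg adjustment, a procedure tested on simulated data. A contrast inside a set borrowed its spread from all 8 arrays. Arrays sharing a replicate number deviated together (r from 0.471 to 0.702), but with the means of group and set removed r was 0.108 in set 1 and -0.092 in set 2, so the numbers follow the sets. Alternatives were a filter at the 95th percentile of 1225 olfactory receptor genes, quantile normalization, median centring, another variance model, all probe sets, other blocks and leaving out each array. The arm medians under both scalings were added after seeing the data.

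Values were given array by array for all core subunits and Ndufaf genes, Ndufa4, Ndufa4l2, the 3 highest and 3 lowest accessory differences, the extremes within and between sets, and genes apart in the same direction in both sets. Ndufab1 and Ndufb9 were added after their values were seen. The members, the lists and the block for the set were chosen with earlier results of these data known. The number of arrays limits the precision. An item withheld for evaluation is not reported here.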

Additional observations from a re-analysis of the deposited data

Results flagged for a closer look

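Ndufs6, an accessory subunit of the matrix arm, read 14.66 on knockout array 3, against 14.32, 14.36 and 14.38 on the other 3 knockout arrays. Its gap to the nearest of them is a larger share of the group's range than Dixon's 95% limit allows for 4 samples. The wild-type arrays of the same set read 14.51 and 14.66, so the value lies within the range of set 2. Of 92 groups of 4 arrays examined (46 genes in 2 groups), 1 stood out this way. Each group holds 2 arrays of each set, and the sets lie on different scales, so the usual chance rate of about 5% does not apply.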

How the results depend on the processing

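No complex I gene passed the test under any alternative: 690 alternative values of the 46 genes and 56 counts held 0 calls, and the lowest adjusted p with the set as a block was 0.754 (limma). With the replicate number as a block in place of the set, 0 complex I genes and 0 of all genes passed, and without any block also 0.

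Counts over all genes moved more. With the set as a block, 1 gene passed when all probe sets were tested and 0 to 1 when an array was left out (1 without knockout array 3). Within set 1, 0 to 14 passed when an array was left out (1 without knockout array 1, 14 without knockout array 2). Within set 2, where 1 passed, the count was 12 with the olfactory filter, 0 with quantile normalization, 0 over all probe sets, 0 with replicates 3 and 4 alone, and 0 to 10 with an array left out (10 without knockout array 3, 3 without knockout array 4, 9 without wild-type array 4, 0 without wild-type array 1, 2 or 3). For the difference between the sets, 142 became 333 with the filter, 82 with median centring, 6 with a trended and robust variance model, 38 over all probe sets, and 0 to 23 with an array left out (23 without knockout array 3, 10 without wild-type array 4, 4 and 1 without knockout arrays 2 and 4, 0 without the others). The causes were not tested.

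Of 87 alternative class medians 84 moved by less than the spread between replicates. Quantile normalization turned the core median to 0.0516 in set 1 and -0.0784 in set 2 and the accessory median to -0.1294 in set 2. Leaving out 1 array moved the block medians between -0.0412 and 0.0348 (core), -0.0363 and 0.0759 (accessory) and -0.066 and 0.0575 (assembly factors). Probe sets at the top of the scale (ND3), within 0.1 of it (Ndufb9 on 1 array) and near the olfactory level (Ndufa4l2) limit what can be seen.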
